A study of Homo sapiens with 60 samples.

Results

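Aminoacyl-tRNA synthetases were followed in HepG2, a human liver cancer cell line, exposed for 24 h to vehicle or to 1 of 8 herbal extracts. The genes were taken by name: 19 that encode the cytosolic enzymes and 16 that encode the mitochondrial ones, 35 of the 60675 genes in the count table. All 35 were found, and all 35 passed the filter on low counts that left 16284 genes for testing. The threonyl-like TARS3 is not among the 35 and is counted with the other charging genes.

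A synthetase joins one amino acid to its tRNA, which the ribosome then reads. Animal cells translate in the cytosol and in the mitochondrion, and most amino acids have one nuclear gene for each place. GARS1 and KARS1 encode both forms from one gene, and EPRS1 carries the glutamyl and the prolyl activity in one chain. Mitochondrial glutaminyl-tRNA is made without a glutaminyl synthetase, by EARS2 followed by an amidotransferase whose subunits include QRSL1, GATB and GATC. Several cytosolic enzymes sit in the multisynthetase complex on the scaffold proteins AIMP1, AIMP2 and EEF1E1, while the others are free. When amino acids run short or the endoplasmic reticulum is stressed, phosphorylation of the initiation factor eIF2 favours translation of the transcription factor ATF4, and several cytosolic synthetase genes are known targets of ATF4.

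Vehicle was 0.1% DMSO per the sample labels and 2% in the series text, and the DMSO content of the treated cultures is not given. The 2 formulas, each of several herbs, were extracted with water: Sibjeondaebo-tang, abbreviated SDT, and Palmul-tang, abbreviated PMT. The single herbs were extracted with 70% ethanol: Glycyrrhizae Radix (licorice root, below Glycyrrhiza), Poria cocos (Poria), Paeoniae Radix (Paeonia), Panax ginseng (Ginseng), Atractylodis Rhizoma (Atractylodis) and Angelicae Gigantis Radix (Angelica). Each extract was given at 500 (High), 100 (Medium) and 20 (Low) µg/mL. There were 3 libraries of vehicle and of each dose of Glycyrrhiza, Poria, Ginseng, Atractylodis and SDT, 2 of each dose of PMT, and 1 of each dose of Angelica and Paeonia. Nothing in the labels ties replicates to separate cultures, so the p-values measure the spread between these libraries, which may be technical. The descriptions carry a set code that never joins vehicle and an extract, so vehicle and set cannot be told apart, whereas High and Low of one extract share a code.

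Levels are given as CPM, the read count scaled to the library's total. The 60 libraries held 19057230 to 33233215 counts each. The liver markers ALB (6811 to 11630 CPM) and AFP (7136 to 14830 CPM) were high in all 60, and of the 4 leukocyte and macrophage markers PTPRC was at 0 in all 60, CD3E at 0 to 0.08534 CPM, CD14 at 1.624 to 4.194 and CD68, a lysosomal protein that is not limited to macrophages, at 50.55 to 160.7. Reads of mitochondrially encoded genes made up 13.35% to 15.24% of the vehicle libraries and 14.68% to 24.76% of the extract libraries. CPM were taken on TMM-scaled library sizes. Changes are log2 fold changes from one edgeR fit with their standard error (SE), and a gene is called when its adjusted p from the quasi-likelihood test is under 0.05. In bulk RNA of this kind, fewer cells of a type and less RNA per cell cannot be told apart.

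In vehicle, the cytosolic enzymes were the more abundant group. Divided by the length of the merged exons, the cytosolic genes had a median of 41.7 CPM per kb and the mitochondrial genes a median of 9.97 CPM per kb. The lysyl enzyme KARS1 led with 84.4 ± 1.03 (SD, n = 3) CPM per kb, followed by the glutaminyl enzyme QARS1 at 74.7 ± 1.73. AARS1, GARS1 and NARS1 came next at 56.4, 52.1 and 51.5, and the ranges of GARS1 and NARS1 overlapped. So did those of SARS1, VARS1, MARS1 and RARS1 at ranks 7 to 10, and those of YARS1, FARSA and EPRS1 at ranks 12 to 14. The isoleucyl enzyme IARS2 was the highest mitochondrial gene, at 38.9 ± 0.509 CPM per kb and rank 11 of 35. The cysteinyl enzyme CARS1 was the lowest cytosolic gene, at 8.13 ± 0.045 and rank 28. The prolyl enzyme PARS2 was the lowest of all, at 3.06 ± 0.208.

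Glycyrrhiza at High separated the compartments. Against Glycyrrhiza at Low, 13 of the 19 cytosolic genes rose and 2 fell, while 2 of the 16 mitochondrial genes rose and 9 fell. Of all genes tested in this comparison, 28.4% were called higher and 27.8% lower. The median log2 change was 0.52 over the cytosolic genes, -0.19 over the mitochondrial genes and 0.01 over all genes. Mitochondrially encoded genes took 15.14% to 16.96% of the reads in the Low libraries and 17.76% to 18.4% in the High libraries, and the counts were the same when those genes were left out before scaling.

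One feature of the cytosolic genes can be read from their promoters. ATF4 with a C/EBP partner is known to bind the CARE element, and TGATGNAA was searched as its letters on both strands, from 250 bases before to 50 bases after the RefSeq start (GRCh38.p14). It was present in 3.67% of 27305 promoters and in 2.53% of the 15843 of protein-coding genes. Of the cytosolic genes, 16 had a promoter in the table and 6 held the letters. Of the mitochondrial genes, 14 had one and 1 held the letters. The 7 windows of 30 bases are shown because they mark the genes with the match, 5′ to 3′ on the strand of the gene, with the match in capitals.

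AARS1: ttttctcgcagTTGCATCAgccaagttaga
CARS1: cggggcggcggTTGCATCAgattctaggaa
IARS1: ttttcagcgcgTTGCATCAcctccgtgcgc
MARS1: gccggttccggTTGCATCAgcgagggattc
NARS1: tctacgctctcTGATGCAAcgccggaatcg
TARS1: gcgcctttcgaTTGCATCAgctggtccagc
YARS2: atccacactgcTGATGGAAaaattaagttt

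The windows lie at chr16:70289675-70289704 (minus strand) for AARS1, chr11:3057407-3057436 (minus) for CARS1 and chr9:92293692-92293721 (minus) for IARS1. Those of MARS1, NARS1 and TARS1 lie at chr12:57488053-57488082 (plus), chr18:57621804-57621833 (minus) and chr5:33440956-33440985 (plus). That of YARS2, the mitochondrial tyrosyl enzyme, lies at chr12:32756076-32756105 (minus). The 6 cytosolic windows carry TGATGCAA or its reverse complement TTGCATCA, and the YARS2 window carries TGATGGAA. Counted from the start base as 0, the matches began at -187 in AARS1, -2 in CARS1, -13 in IARS1, -4 in MARS1, 14 in NARS1, 2 in TARS1 and -197 in YARS2. All 6 cytosolic genes with the letters rose in Glycyrrhiza at High, by 0.41 to 1.03 on the log2 scale. The 10 cytosolic genes without them included 5 that rose, 2 that fell and 3 not called. The largest changes were, in order, in SARS1, WARS1, CARS1 and GARS1. Of these CARS1 held the letters, and the others were among the 10 without them. YARS2 fell. A match describes these letters in this window and no binding was measured.

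The seryl enzyme SARS1 (ENSG00000031698, chr1:109213918-109238169, plus strand, GRCh38) showed the largest rise. It was at 82.97, 85.37 and 87.54 CPM in the 3 Low libraries, 89.07, 86.02 and 92.34 at Medium, and 193.6, 199.4 and 209.6 at High. The High libraries stood apart from every other library of the series, and vehicle lay at 81.42 to 86.96. The change was 1.23 (SE 0.05), adjusted p = 6.29e-25.

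The tryptophanyl enzyme WARS1, also known as an interferon-inducible gene, was at 101, 92.23 and 95.76 CPM at Low and at 203.4, 208.6 and 215.2 at High. The change was 1.11 (SE 0.05), adjusted p = 9.14e-24. CARS1 went from 24.16, 25.08 and 24.84 CPM at Low to 47.5, 52.32 and 52 at High, a change of 1.03 (SE 0.06). GARS1, the glycyl enzyme of both compartments, went from 149.2, 144 and 149.3 CPM to 303.9, 317.4 and 278.3, a change of 1.02 (SE 0.04). In all of these genes the Low and High libraries did not overlap.

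The methionyl enzyme MARS1 was at 126.4, 111.8 and 113.5 CPM at Low and 231.1, 230.4 and 239.6 at High, a change of 0.99 (SE 0.05). MARS1 shares 62 exonic bases with DDIT3 on the opposite strand, DDIT3 rose by 2.45 in the same comparison, and the strand setting of the counting is not stated. The part of DDIT3 reads in the MARS1 value was not tested. The alanyl enzyme AARS1 went from 205.9, 210.7 and 200.7 CPM to 398.1, 397.7 and 422.1, a change of 0.98 (SE 0.05). The tyrosyl enzyme YARS1 went from 109.9, 105.7 and 105.3 CPM to 207.4, 203 and 218.5, a change of 0.97 (SE 0.04). IARS1 went from 246.8, 237.6 and 232.8 CPM to 414.5, 424.2 and 406.2, a change of 0.79 (SE 0.05). These genes too were higher in each High library than in each Low library.

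The other cytosolic genes that rose changed less. LARS1 (leucyl) rose by 0.53, NARS1 (asparaginyl) by 0.52, TARS1 (threonyl) by 0.41, EPRS1 by 0.36 and HARS1 (histidyl) by 0.34, each with an adjusted p of 5.12e-07 or lower. In 12 of the 13 cytosolic genes that rose, the 3 Glycyrrhiza High libraries were above all 57 other libraries of the series. HARS1 was the exception, with 74.81 to 83.48 CPM against up to 95.38 in Poria at High. How many of all genes stood apart from the other libraries in this way was not counted.

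QARS1 and RARS1 went the other way. QARS1, the glutaminyl enzyme, fell from 206.9, 208.8 and 205.4 CPM at Low to 177.3, 173.6 and 182.9 at High, a change of -0.22 (SE 0.04, adjusted p = 1.86e-06), and its High libraries were below all 57 others. The arginyl enzyme RARS1 fell by 0.13 on the log2 scale (SE 0.05, adjusted p = 0.0152), with overlapping libraries. Its call was lost without Glycyrrhiza High replicate 1 (adjusted p = 0.0671), High replicate 3 (0.162) or Low replicate 1 (0.0585). Not called were FARSA and FARSB, the 2 subunits of the cytosolic phenylalanyl enzyme (-0.14 and 0.06), KARS1 (-0.07) and the valyl enzyme VARS1 (-0.07).

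**Figure D1:**
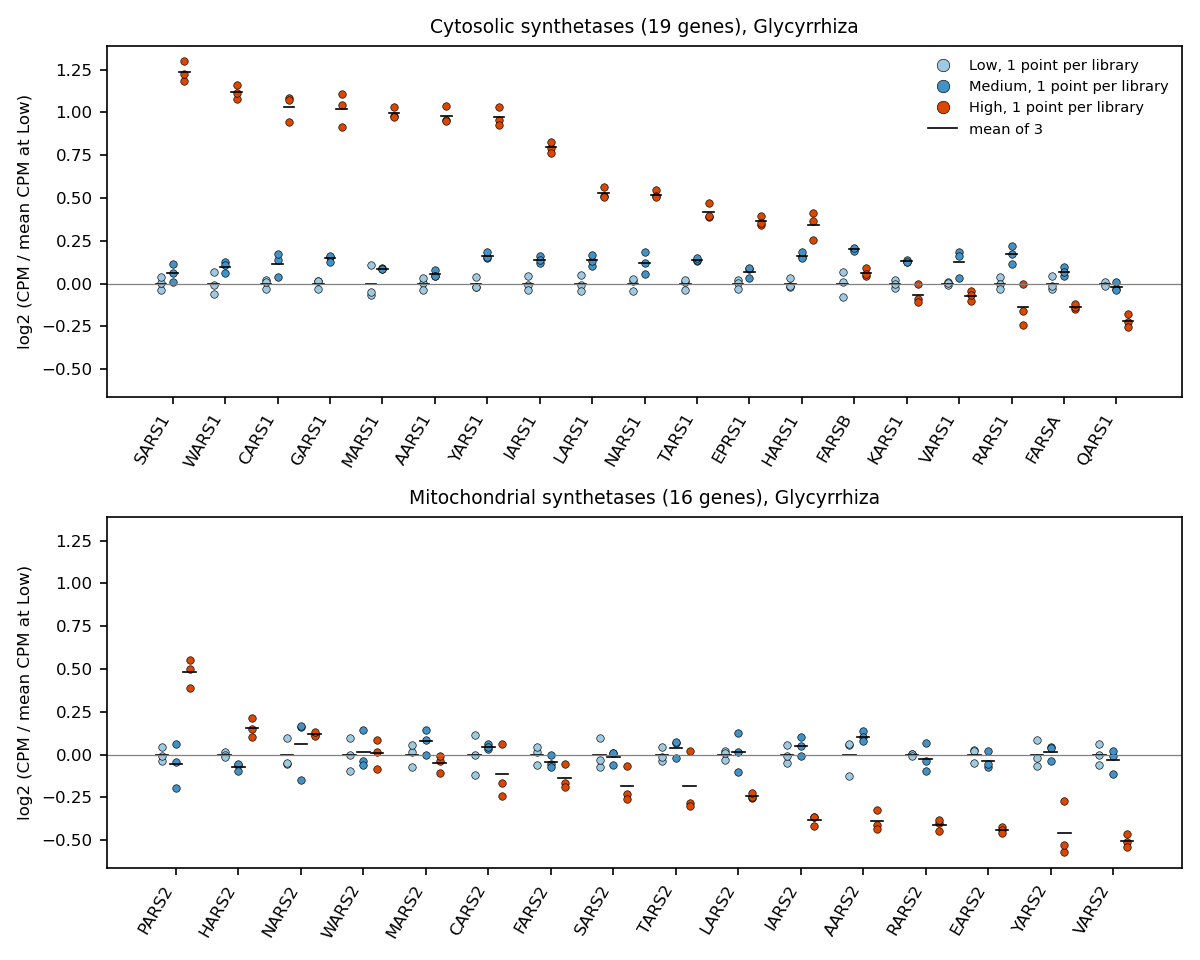
Each point is 1 library of Glycyrrhiza at Low, Medium or High, as log2 of its CPM over the mean CPM of the 3 Low libraries (y axis), for the 19 cytosolic genes (upper panel) and the 16 mitochondrial genes (lower panel), sorted by the change at High; short lines are means of 3. The highest cytosolic High mean is at SARS1 and the lowest mitochondrial one at VARS2 (edgeR changes of 1.23 and -0.51), while Medium stays near Low in both panels.

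Membership of the multisynthetase complex divided the cytosolic genes unevenly. Of the 7 complex enzymes 4 rose (IARS1, LARS1, MARS1 and EPRS1), 2 fell (QARS1 and RARS1) and KARS1 was not called, with a median of 0.36. Of the 12 free enzymes 9 rose and none fell, with 3 not called and a median of 0.74. Of the scaffold proteins AIMP1 rose by 0.28 and AIMP2 by 0.32, and EEF1E1 fell by 0.34 on the log2 scale. These are counts within one comparison, and no test compared the complex with the free enzymes.

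Most of the mitochondrial genes that were called in Glycyrrhiza at High fell. VARS2 (valyl, ENSG00000137411, chr6:30908242-30926459, plus strand) was at 83.82, 77.07 and 80.25 CPM at Low, 79.91, 81.67 and 74.38 at Medium and 56.5, 55.39 and 58.33 at High. The change was -0.51 (SE 0.05), adjusted p = 7.31e-12, and vehicle lay higher still, at 85.63 to 90.46. YARS2 went from 21.5, 19.41 and 20 CPM to 13.69, 14.11 and 16.81, a change of -0.46 (SE 0.08, adjusted p = 2.01e-06).

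EARS2, the glutamyl enzyme that also feeds the glutaminyl route, went from 70.01, 66.43 and 69.54 CPM to 51.19, 50.58 and 50.08, a change of -0.44 (SE 0.05). RARS2 (arginyl) went from 40.9, 40.85 and 40.52 CPM to 30.86, 29.92 and 31.22, a change of -0.41 (SE 0.05). AARS2 (alanyl) went from 21.24, 18.7 and 21.35 CPM to 15.37, 15.11 and 16.33, a change of -0.40 (SE 0.07). In each of these genes, as in VARS2, YARS2 and IARS2, the 3 High libraries were below all 57 other libraries of the series. This separation too was not counted over all genes.

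IARS2 fell by 0.38 on the log2 scale and LARS2 (leucyl) by 0.25. TARS2 (threonyl) and SARS2 (seryl) fell by 0.19 and 0.18, and their Low and High libraries overlapped. TARS2 lost its call without Glycyrrhiza High replicate 1 (adjusted p = 0.112), High replicate 2 (0.139) or Low replicate 3 (0.0546). SARS2 lost it without High replicate 1 (0.129), High replicate 3 (0.133), Low replicate 2 (0.0531) or Low replicate 3 (0.179). SARS2 shares 1492 exonic bases with a gene annotated on its own strand (ENSG00000269547), so their reads may be divided by the counting.

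PARS2 and HARS2 rose among the mitochondrial genes. PARS2 (ENSG00000162396, chr1:54756898-54764514, minus strand) was at 6.95, 6.58 and 6.7 CPM at Low, 6.54, 5.9 and 7.05 at Medium and 9.53, 9.89 and 8.82 at High. The change was 0.48 (SE 0.10), adjusted p = 8.39e-05, and the High libraries were above all 57 others. HARS2 rose by 0.15 (SE 0.07) with an adjusted p of 0.0486, and this call was lost with other size factors (0.0543), with DESeq2 (0.0787), without the filter on low counts (0.162), and without each of 5 of the 6 libraries (0.0811 to 0.158). HARS1 and HARS2 are head to head, with 84 bases between their RefSeq starts and 402 shared exonic bases in the annotation, so their counts may not be separate. CARS2 (-0.12), FARS2 (-0.14), MARS2 (-0.05), NARS2 (0.11) and WARS2 (0.01) were not called.

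Amino acid by amino acid, the cytosolic change exceeded the mitochondrial one in 13 of 13 pairs in Glycyrrhiza, with a median difference of 1.05 on the log2 scale. Tyrosine showed the widest difference, 1.43, with YARS1 at 0.97 and YARS2 at -0.46. Histidine showed the narrowest, 0.19, with HARS1 at 0.34 and HARS2 at 0.15. For valine and arginine neither enzyme rose, and VARS2 (-0.51) and RARS2 (-0.41) lay below VARS1 (-0.07) and RARS1 (-0.13).

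**Figure D2:**
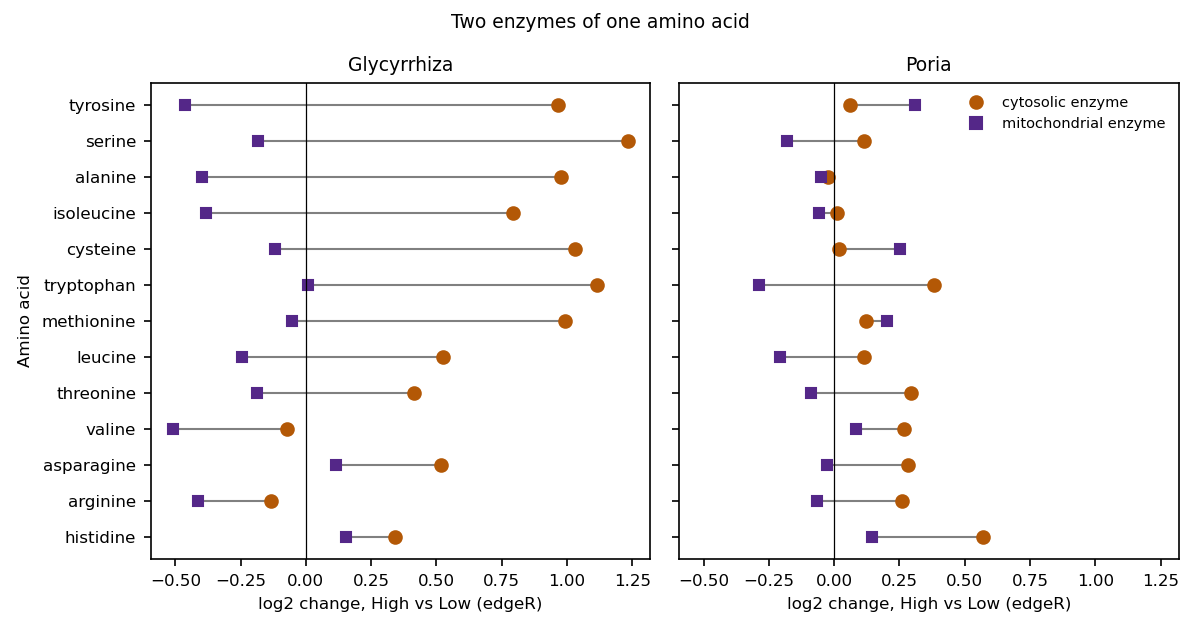
For each of the 13 amino acids with 1 cytosolic and 1 mitochondrial gene, the log2 change from Low to High (x axis) is drawn for the cytosolic enzyme (circle) and the mitochondrial enzyme (square), joined by a line, in Glycyrrhiza (left) and Poria (right). The circle lies to the right in 13 of 13 amino acids in Glycyrrhiza and in 10 of 13 in Poria.

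At Medium, Glycyrrhiza was close to Low. Against Low, 6 cytosolic genes were called higher, none lower, and no mitochondrial gene was called, where 1.77% of all genes were called higher and 1.79% lower. The largest were FARSB at 0.20, RARS1 at 0.17 and YARS1 at 0.16. The count of 6 ran from 0 to 3 when 1 library was left out, was 1 without the filter on low counts and 10 with DESeq2. Of the mitochondrial genes none had an unadjusted p under 0.05, and DESeq2 called none. Of all 16284 genes 2310 reached that unadjusted level, both directions together.

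The other genes of tRNA charging and translation did not all follow the cytosolic synthetases in Glycyrrhiza at High. Of 11 further charging and editing genes 6 rose and 1 fell, with a median of 0.18. DTD1, which removes D-amino acids from tRNA, rose by 0.76, SEPSECS, the last enzyme of selenocysteinyl-tRNA synthesis, by 0.63, and PSTK, the kinase that acts before SEPSECS, by 0.38. GATC fell by 0.34 on the log2 scale. Of 24 mitochondrial translation factors and ribosomal proteins 5 rose and 8 fell, with a median of -0.06. The largest changes were in MRPS2 (-0.43), MRPL24 (0.34), MTIF3 (-0.34) and MRPS27 (-0.33). Of 24 cytosolic translation factors 8 rose and 11 fell, with a median of -0.09. EIF4EBP1, a repressor of cap-dependent translation, rose by 1.08 and the eIF2 subunit EIF2S2 by 0.46, whereas EIF4G1 fell by 0.34 on the log2 scale.

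A list of 20 genes other than synthetases, below the ATF4-responsive genes, held ATF4 itself and genes known to respond to it. CHAC1 was removed by the filter on low counts and all 19 tested rose, with a median of 1.24. The largest changes were 2.57 in SLC7A11, the cystine transporter, 2.45 in DDIT3, a transcription factor of the stress response, 2.44 in ASNS, asparagine synthetase, and 2.26 in VLDLR, a lipoprotein receptor. ATF4 itself, which is in this list, rose by 0.80. MTHFD2 and SHMT2, enzymes of mitochondrial one-carbon metabolism in this list, rose by 1.24 and 0.97. Of the ATF4-responsive genes with a promoter in the table, 5 of 17 held TGATGNAA, among them CHAC1, which was not tested for expression. The letters were in 0 of 24 mitochondrial translation genes and 0 of 20 cytosolic translation factors.

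Poria at High also moved cytosolic genes, led by HARS1, GARS1 and WARS1, of which GARS1 and WARS1 were also among the 4 largest changes in Glycyrrhiza. Against Poria at Low, 10 of 19 cytosolic genes rose and none fell, with a median of 0.12, and 3 of 16 mitochondrial genes rose and 2 fell, with a median of -0.06. Of all genes, 20% were called higher and 18.4% lower. At an unadjusted p under 0.05, 12 cytosolic genes were higher and none lower, against 7433 of all 16284 genes in both directions together. DESeq2 called 10 cytosolic genes higher and none lower. Mitochondrially encoded genes took 15.79% to 17.48% of the reads in the Low libraries and 19.67% to 22.26% in the High libraries, and the counts were the same without those genes.

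HARS1 rose most, from 58.9, 62.59 and 68.52 CPM at Low to 92.61, 93.74 and 95.38 at High, a change of 0.57 (SE 0.05, adjusted p = 1.01e-11). GARS1 went from 142.8, 150 and 133.8 CPM to 193, 189.8 and 188.2, a change of 0.42 (SE 0.04, adjusted p = 1.4e-11). WARS1 went from 86.8, 97.76 and 90.59 CPM to 120.3, 124.9 and 113.4, a change of 0.38 (SE 0.05). In these genes each High library was above each Low library.

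FARSA went from 70.04, 69.01 and 85.2 CPM at Low to 107.9, 91.33 and 85.78 at High, a change of 0.35 (SE 0.07), with 1 Low library close to the lowest High library. TARS1, NARS1, VARS1 and RARS1 rose by 0.30, 0.28, 0.27 and 0.26. KARS1 rose by 0.19 and LARS1 by 0.12. In a fit of the compared libraries alone, 8 cytosolic genes were called, and KARS1 and LARS1 were not among them. AARS1 (-0.03), CARS1 (0.02), EPRS1 (0.08), FARSB (0.00), IARS1 (0.01), MARS1 (0.12), QARS1 (0.05), SARS1 (0.12) and YARS1 (0.06) were not called.

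Among the mitochondrial genes in Poria, YARS2 rose from 19.36, 19.76 and 22.31 CPM to 25.25, 26.04 and 24.78, a change of 0.31 (SE 0.08, adjusted p = 0.00133). CARS2 rose by 0.25 and MARS2 by 0.20. The tryptophanyl enzyme WARS2 fell from 15.87, 16.27 and 16.13 CPM to 13.43, 12.63 and 13.48, a change of -0.29 (SE 0.07, adjusted p = 0.000405), while its cytosolic counterpart WARS1 rose. LARS2 fell by 0.21 on the log2 scale. AARS2 (-0.05), EARS2 (-0.08), FARS2 (-0.09), HARS2 (0.15), IARS2 (-0.06), NARS2 (-0.03), PARS2 (-0.11), RARS2 (-0.07), SARS2 (-0.18), TARS2 (-0.09) and VARS2 (0.08) were not called. Without Poria High replicate 1 the count of mitochondrial calls was 8 in place of 5. Over the 13 amino acid pairs the cytosolic change exceeded the mitochondrial one in 10, with a median difference of 0.30 and a range from -0.25 for tyrosine to 0.67 for tryptophan.

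The ATF4-responsive genes, ATF4 included, were mixed in Poria at High: 7 rose and 5 fell, with a median of 0.03. SLC7A11 rose by 1.28, ATF3 by 0.68, and VLDLR and SLC7A1 by 0.49, whereas ATF4 fell by 0.22 on the log2 scale and PHGDH by 0.37. Of the 24 cytosolic translation factors 9 rose and none fell, led by EIF2B2 at 0.43, EIF3D at 0.40, EIF3A at 0.37 and GSPT1 at 0.33. Of the 24 mitochondrial translation genes 7 rose and 5 fell. Of the scaffold proteins AIMP2 rose by 0.19, and of the 11 other charging genes PTRH2 rose by 0.42 and DTD2 fell by 0.18 on the log2 scale.

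Poria at Medium against Low gave 11 cytosolic genes higher and none lower, with 8.16% of all genes called higher and 7.29% lower, led by GARS1 at 0.30, MARS1 at 0.24 and WARS1 at 0.21. This count was 6 without the filter on low counts and 2 in a fit of the compared libraries alone. No mitochondrial gene was called, 3 had an unadjusted p under 0.05 (2 higher, 1 lower), and DESeq2 called none. Of all 16284 genes 4469 reached that unadjusted level, both directions together.

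The dose responses of the 2 herbs were compared directly, as the change from Low to High in Glycyrrhiza minus that in Poria. The 2 herbs carry different set codes, so herb and set cannot be told apart in this difference. Of the cytosolic genes 11 had a higher response in Glycyrrhiza and 6 a lower one, and of the mitochondrial genes 2 had a higher and 8 a lower one. Of all genes, 21.8% were called higher and 23.8% lower. The largest differences were 1.12 in SARS1 (SE 0.07), 1.01 in CARS1 (SE 0.09), 1.00 in AARS1 (SE 0.07) and 0.91 in YARS1 (SE 0.05). FARSA (-0.48), RARS1 (-0.39) and VARS1 (-0.34) had the lowest cytosolic differences, and YARS2 (-0.77) the lowest mitochondrial one. RARS1 and YARS2 were called in opposite directions, lower in Glycyrrhiza and higher in Poria. FARSB and TARS1 were not called as different, and neither were FARS2, HARS2, LARS2, NARS2, SARS2 and TARS2.

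In Atractylodis and Ginseng the same comparison moved cytosolic genes by small amounts. Atractylodis at High against Low gave 8 cytosolic genes higher and none lower, where 3.39% of all genes were called higher and 3.02% lower. FARSB rose by 0.25, KARS1 by 0.21 and TARS1 by 0.20, and in each of the 8 the Low and High libraries did not overlap. How many of all genes had no overlap was not counted. At an unadjusted p under 0.05, 16 cytosolic genes were higher and none lower, against 3032 of all 16284 genes in both directions together. No mitochondrial gene was called by edgeR or DESeq2, and 2 were higher at an unadjusted p under 0.05. Without the filter on low counts the cytosolic count was 4, and in a fit of these libraries alone it was 0, or 10 with a replicate block added to that fit.

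Ginseng gave 9 cytosolic genes higher and none lower, where 2.92% of all genes were called higher and 2.87% lower. VARS1 rose by 0.22 (adjusted p = 5.3e-05), KARS1 by 0.21 and FARSB by 0.19. At an unadjusted p under 0.05, 14 cytosolic genes were higher and none lower, against 2848 of all 16284 genes in both directions together. The count was 5 without Ginseng High replicate 1, High replicate 3, Low replicate 1 or Low replicate 2, and 4 without the filter on low counts. Of the mitochondrial genes MARS2 was called higher (0.20, adjusted p = 0.0492), a call lost in 6 of the other fits and without each of 5 libraries.

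Of the 19 ATF4-responsive genes tested, 2 rose in Atractylodis, SLC7A11 by 0.52 and ASNS by 0.18 (adjusted p = 0.046), and 1 in Ginseng, SLC7A11 by 0.38. None fell in either, and the medians were 0.05 and -0.03. Of the 24 cytosolic translation factors 7 rose in Atractylodis and 8 in Ginseng, none fell in either, and GSPT1 was at 0.20 and 0.19. Of the 24 mitochondrial translation genes 5 rose in Atractylodis and 4 in Ginseng, with none lower. GARS1, LARS1, NARS1 and TARS1 were called higher at High in Poria, Atractylodis, Glycyrrhiza and Ginseng alike. VARS1 was called higher in SDT, Poria, Atractylodis and Ginseng, and not in Glycyrrhiza. The number of all genes shared between extracts in this way was not counted. In High against Low, AARS1, CARS1, EPRS1, IARS1, MARS1 and SARS1 were called in Glycyrrhiza and in none of the other 5 extracts with replicates. Other comparisons called some of them elsewhere. CARS1 and MARS1 were higher in Poria at Medium against Low, and against vehicle at High SARS1 was higher in 4 of 6 extracts and AARS1 and IARS1 in 2 of 6 each, Glycyrrhiza included. The High against Low contrast of Glycyrrhiza was tested against that of Poria, where all 6 differed, and was not tested against the others.

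The formulas changed little with dose. In SDT, VARS1 alone was called higher (0.15, SE 0.04, adjusted p = 0.0288), where 0.522% of all genes were called higher and 0.522% lower. It was lost without the filter on low counts and without SDT High replicate 1, High replicate 3, Low replicate 2 or Low replicate 3. At an unadjusted p under 0.05, 9 cytosolic genes were higher and none lower, against 1793 of all 16284 genes in both directions together. In PMT edgeR and DESeq2 called no member, where 0.197% of all genes were called higher and 0.319% lower. At an unadjusted p under 0.05 NARS1 and VARS1 were higher and AARS2 lower in PMT. Of all 16284 genes 1491 reached that level, both directions together. At Medium against Low, edgeR called no member in SDT, PMT, Atractylodis or Ginseng, where 0.00614%, 0%, 0% and 0.00614% of all genes were called higher and 0% lower. DESeq2 called 1 cytosolic gene, in Ginseng, and the cytosolic genes at an unadjusted p under 0.05 numbered 1, 0, 3 and 3 in the order given. Of all 16284 genes 786, 840, 721 and 725 reached that level, both directions together. Of the mitochondrial genes 1 reached that level, in Ginseng, and it was lower.

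**Figure D3:**
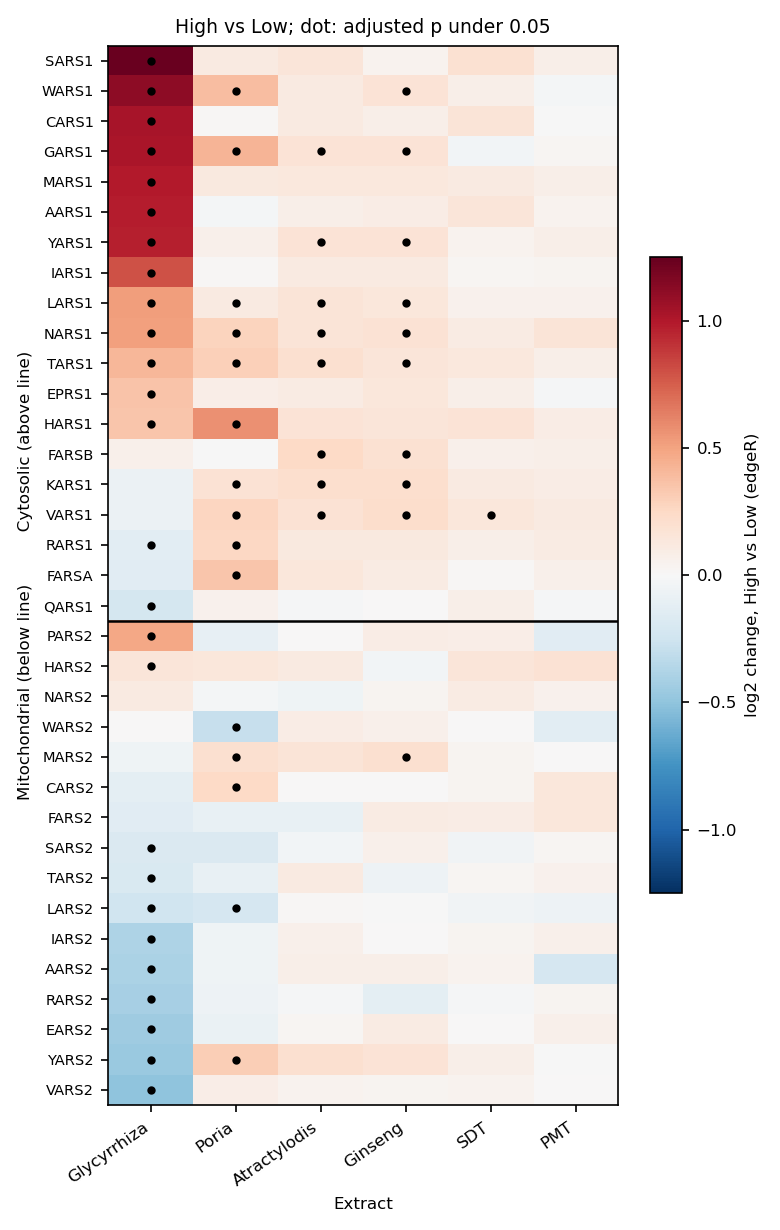
Colour gives the log2 change from Low to High for each gene (rows, cytosolic above the line and mitochondrial below, sorted by the change in Glycyrrhiza) in each of the 6 extracts with replicates (columns), and a dot marks an adjusted p under 0.05. The Glycyrrhiza column holds 13 cytosolic genes called higher and 9 mitochondrial genes called lower; Poria, Atractylodis and Ginseng hold paler calls, mostly cytosolic.

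Angelica and Paeonia had 1 library per dose, so their values have no replicate check. In Angelica the log2 ratio of High to Low had a median of 0.14 over the cytosolic genes and 0.02 over the mitochondrial genes, and no member was past 0.5 in either direction. Of all genes 4.47% were above 0.5 and 7.55% below -0.5. In Paeonia the medians were 0.04 and 0.06, and CARS1 was above 0.5, at 22.37 CPM in Low, 27.46 in Medium and 36.34 in High, a log2 ratio of 0.70. Of all genes 11.3% were above 0.5 and 11.8% below -0.5. GARS1 (0.49), MARS1 (0.42) and AARS1 (0.37) followed in Paeonia, and VARS1 (-0.39) and SARS2 (-0.37) were the lowest. In the same pair of libraries 13 of 19 ATF4-responsive genes were above 0.5.

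The distance between the compartments, taken per library as mean log2 CPM of the cytosolic genes minus that of the mitochondrial genes, sums up these patterns. It was 2.00 ± 0.05 (SD, n = 3) in vehicle and 2.76 ± 0.03 in Glycyrrhiza at High, where the 3 libraries lay at 2.72 to 2.79. All other groups had means of 2.02 to 2.25, with Poria at High on top. In each of the 6 replicated extracts the mean rose from Low to Medium to High, as it did in Angelica with 1 library per dose. In Paeonia, however, Medium (2.08) was below Low (2.12) and High was 2.19. Libraries of neighbouring doses overlapped at both steps in SDT and Ginseng and from Low to Medium in Atractylodis. SDT lay at 2.093 to 2.146 at Low, 2.116 to 2.148 at Medium and 2.145 to 2.188 at High. The order of the doses was not tested. Summed, the cytosolic genes held 2448 to 2517 CPM at Glycyrrhiza Low and 3605 to 3677 at High, and the mitochondrial genes 568 to 595 and 472 to 492.

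**Figure D4:**
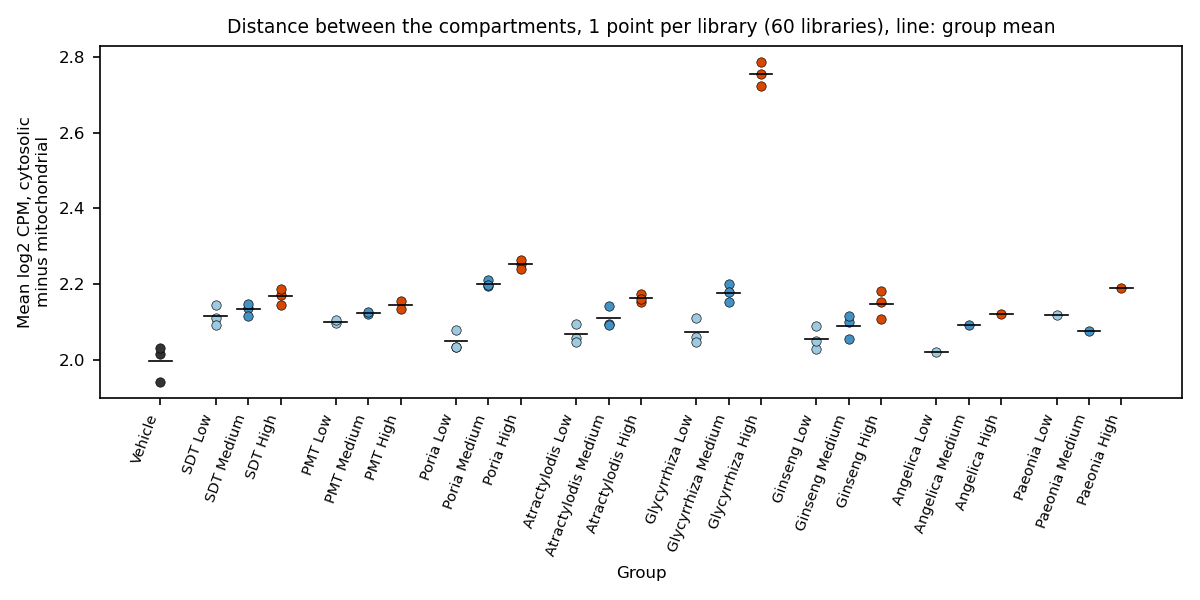
Each point is 1 of the 60 libraries, placed by group (x axis) and by the mean log2 CPM of 19 cytosolic genes minus that of 16 mitochondrial genes (y axis), with a line at each group mean. Glycyrrhiza at High sits at 2.72 to 2.79, above all other libraries, and vehicle at 1.94 to 2.03.

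Against vehicle, a shared offset appeared at every dose. All extracts were compared with the same 3 vehicle libraries, so their differences are not independent, and the set code differed as well. At Low, no mitochondrial gene was called higher in any of the 6 replicated extracts and 3 to 7 of 16 were called lower, where 17.6% (SDT), 15% (PMT), 9.32% (Poria), 13.1% (Atractylodis), 14.5% (Glycyrrhiza) and 16.6% (Ginseng) of all genes were called lower. DESeq2 called none higher there either, and at an unadjusted p under 0.05 there were 2 higher in PMT, 1 in Ginseng and 0 in the other extracts. Of all 16284 genes 7117, 6491, 5128, 6049, 6484 and 6807 reached that level in the order given, both directions together. IARS2 and MARS2 were called lower at Low and at Medium in 6 of 6 extracts, and HARS2 at Low in 6 of 6. At Medium 17.8%, 14.2%, 18.9%, 13.6%, 17% and 14.6% of all genes were called lower, in the same order of extracts. MARS2 (methionyl) was at 33.93, 34.17 and 31.43 CPM in vehicle and at 21.09 to 32.68 in the 57 extract libraries, of which 56 were below the lowest vehicle library. At Low its log2 difference ran from -0.49 in SDT to -0.32 in Poria. IARS2 was at 140.6, 137 and 138.4 CPM in vehicle, and all 57 extract libraries were below, at 89.51 to 135.3.

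Single cytosolic genes were also called against vehicle, in both directions. At Low, in the order of extracts above, 3, 4, 2, 2, 3 and 1 of 19 were called higher and 5, 3, 3, 2, 1 and 5 lower. The shares of all genes called lower at Low are those given above, and those called higher are given below. The cytosolic counts lay on both sides of these shares, so no shift of the group is read from them. MARS1 was called lower at Low in 4 of 6 extracts, and KARS1 and VARS1 in 3 of 6 each. TARS1 was at 122, 115 and 118.6 CPM in vehicle, and all 57 extract libraries were above, at 123.2 to 188.1. TARS1 and LARS1 were called higher at Low in 5 of 6 extracts and at Medium and High in 6 of 6. GARS1 and NARS1 were called higher at High in 6 of 6 extracts. Of all genes, 18.3%, 16.1%, 9.9%, 13.7%, 15.2% and 16.8% were called higher at Low and 18.2%, 15.4%, 19.7%, 14.7%, 17.9% and 15.3% at Medium, in the same order of extracts. The subunits of the phenylalanyl enzyme parted: FARSA was called higher at Low in 3 of 6 extracts and FARSB lower in 5 of 6, and neither was called in the other direction at any dose.

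At High against vehicle, Glycyrrhiza had 13 cytosolic genes higher and 4 lower and 1 mitochondrial gene higher and 10 lower, where 31.1% of all genes were called higher and 30.2% lower. Poria had 10 cytosolic genes higher and 1 lower, and 1 mitochondrial gene higher and 4 lower (26.3% and 24.8% of all genes). SDT had 6 and 1, and 0 and 7 (17.8% and 16.4%). PMT had 6 and 0, and 0 and 3 (15.3% and 13.9%). Atractylodis had 7 and 0, and 0 and 3 (17.3% and 16.7%). Ginseng had 7 and 1, and 0 and 5 (18.5% and 17.8%). DESeq2 called no mitochondrial gene higher in SDT, PMT, Atractylodis or Ginseng either, and at an unadjusted p under 0.05 the numbers higher were 0, 2, 2 and 1. Of all 16284 genes 6995, 6367, 6915 and 7169 reached that level in these extracts, both directions together.

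**Figure D5:**
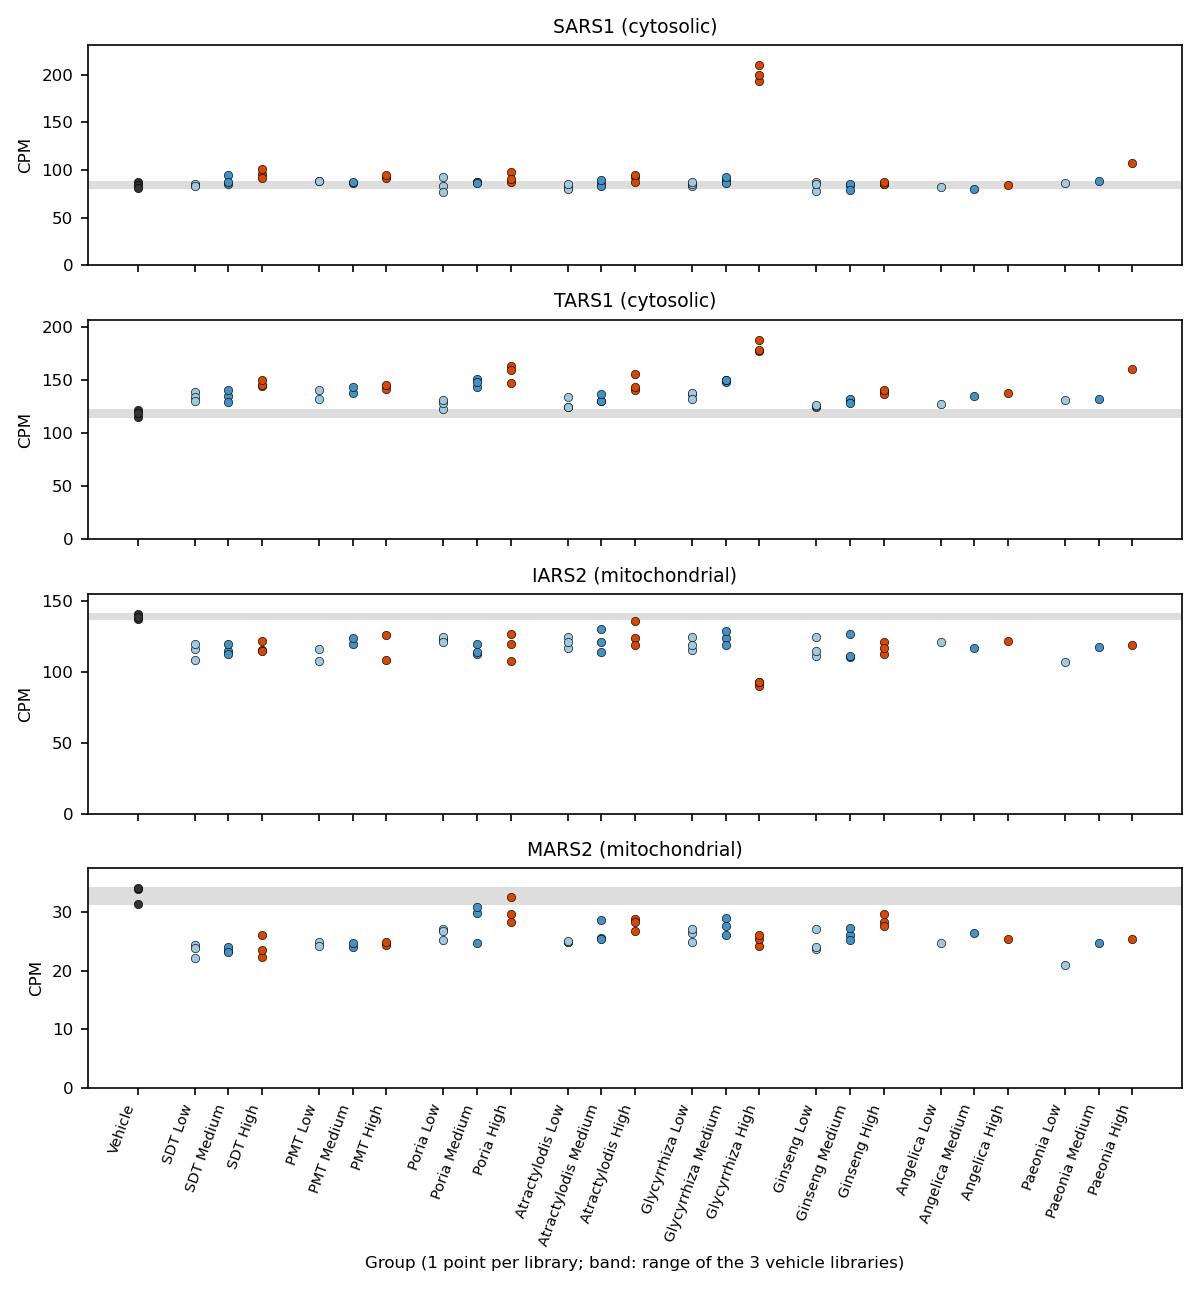
CPM (y axis, from 0) of SARS1, TARS1, IARS2 and MARS2 in each of the 60 libraries by group (x axis), with a grey band for the range of the 3 vehicle libraries. Of the 57 extract libraries, SARS1 lies above the band in 29 and below it in 5, and is highest at Glycyrrhiza High (193.6 to 209.6). TARS1 lies above the band and IARS2 below it in all 57 extract libraries, and MARS2 lies below it in 56 of 57.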

How the data were processed

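Polyadenylated RNA of 60 HepG2 libraries was sequenced as directional libraries, per the labels' protocols. Per the submitters' processing notes, FastQC 0.11.9, Trim Galore 0.6.5, STAR 2.7.3a and RSEM 1.3.3 were used with GRCh38. The authors deposited expected counts per gene without normalization, and 23.4% of nonzero entries lie more than 0.005 from a whole number. The annotation release and strand setting are not given in the sources used here. Of 270 sample columns, 210 were not used here. Genes were matched to GENCODE 29 for coordinates (57055 of 60675 identifiers) and to a name table (56558 with a symbol). The wortmannin control was not analysed here. Some genes of the list of other charging and editing genes are not reported here, and its counts and medians leave them out.

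Expected counts were rounded to whole numbers. Genes were kept by filterByExpr (16284), with TMM scaling. The two-sided quasi-likelihood test of edgeR 4.0.16 (R 4.3.3) was used, with Benjamini-Hochberg adjustment over all genes kept and a threshold of 0.05. One model with a coefficient per group took the 54 libraries of 19 groups with 2 or more libraries. Between replicates the coefficient of variation was 5.6% (dispersion 0.00317). Log2 CPM per library used a prior count of 2. The pipeline was tested on simulated data. The labels' replicate numbers were not taken as pairs in any comparison made, and no 2 libraries of a group agreed within counting noise (chi-square per degree of freedom 2.48 to 34.2).

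The members, gene lists and tests were chosen with earlier results of these data known. Named were the 8 cytosolic and 5 mitochondrial genes with the largest called change in Glycyrrhiza and in Poria (High against Low), every called gene that moved against most called genes of its compartment, and those not called. In other comparisons up to 3 per compartment were named, 4 for the difference between the herbs, and up to 4 per other list. Genes named outside this rule were chosen after their values were seen: the other called members, those shared across extracts, those shifted from vehicle, ATF4, PHGDH, MTHFD2, SHMT2 and those of Angelica and Paeonia. Alternatives were DESeq2 1.42.0, other size factors (RLE), no mitochondrially encoded genes, no filter, only the compared groups, a replicate block, and each library left out.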

Additional observations from a re-analysis of the deposited data

Results flagged for a closer look

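The change from Low to High differed between Glycyrrhiza and Poria, by an edgeR test of the difference itself, in 27 of the 35 genes. The values below are log2 changes in Glycyrrhiza minus those in Poria, and their explanation was not tested. The herbs also differ in set code. Among the cytosolic genes they were higher in Glycyrrhiza for SARS1 (1.12), CARS1 (1.01), AARS1 (1.00), YARS1 (0.91), MARS1 (0.87), IARS1 (0.78), WARS1 (0.73), GARS1 (0.60), LARS1 (0.41), EPRS1 (0.28) and NARS1 (0.23). They were lower for FARSA (-0.48), RARS1 (-0.39), VARS1 (-0.34), QARS1 (-0.27), KARS1 (-0.25) and HARS1 (-0.23). Among the mitochondrial genes they were higher for PARS2 (0.59) and WARS2 (0.29). They were lower for YARS2 (-0.77), VARS2 (-0.59), CARS2 (-0.37), EARS2 (-0.36), RARS2 (-0.35), AARS2 (-0.34), IARS2 (-0.33) and MARS2 (-0.26).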

How the results depend on the processing

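No log2 change of a called member and no change of the compartment distance reversed direction in any alternative. Members were followed in High against Low of Glycyrrhiza, Poria, Atractylodis, Ginseng and SDT and in the Glycyrrhiza minus Poria difference. Counts were followed with higher and lower together, so they could not show a reversal. Of 806 alternative values of the counts and compartment distances 714 stayed within their limits. For the called members of those comparisons, 1157 of 1266 alternative values kept their side of the threshold and 109 lost it. In Glycyrrhiza at High against Low all alternatives gave 13 cytosolic genes higher and 7 to 9 mitochondrial genes lower. The sum of CPM in place of the mean moved the change of the compartment distance from 0.683 to 0.835 (log2) in Glycyrrhiza and from 0.044 to 0.032 in PMT. The cause of the shifts below was not tested.

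The counts that moved by more than 1.5 times are given as cytosolic calls unless named otherwise, both directions together. Without the filter on low counts, High against Low went from 1 to 0 in SDT, from 8 to 4 in Atractylodis and from 9 to 4 in Ginseng, and Medium against Low from 11 to 6 in Poria and from 6 to 1 in Glycyrrhiza. Against vehicle it went from 5 to 3 in PMT Medium, 11 to 6 in Poria Medium, 5 to 1 in Poria Low, 4 to 2 in Atractylodis Low, 8 to 5 in Ginseng High and 4 to 2 in Ginseng Medium. With DESeq2 it was 2 in SDT (High against Low), 10 in Glycyrrhiza and 1, from 0, in Ginseng (Medium against Low), and 8 in Atractylodis Low against vehicle. In fits of only the compared groups it was 0 in SDT and 0 in Atractylodis (High against Low), 2 in Poria (Medium against Low) and 0 in Poria Low against vehicle, where mitochondrial calls went from 4 to 2. The 1 mitochondrial call of Ginseng (MARS2) was 0 with RLE size factors, without mitochondrially encoded genes, without the filter, with the replicate block and in both fits of only the compared groups.

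Same-numbered High and Low libraries had correlations of -0.085 to 0.137, so the numbers were not taken as pairs; in Atractylodis all 3 High libraries correlated best with their own number among the Low libraries (0.076, 0.126 and 0.137) and among the Medium ones (0.11, 0.143 and 0.152), a hint of pairing in that extract, where High was not compared with Medium. The replicate block gave 2 cytosolic calls in SDT (High against Low) and 1 mitochondrial call in Poria (Medium against Low), and moved no other count by more than 1.5 times apart from Ginseng's. With the block and only the compared groups, chosen after seeing the data, cytosolic calls were 0 in SDT, 10 in Atractylodis and 1 in Ginseng, and mitochondrial calls 3 in Poria.

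Leaving out 1 library gave these ranges. High against Low: SDT cytosolic 0 to 2 (0 without High 1, High 3, Low 2 or Low 3; 2 without High 2), Poria mitochondrial 4 to 8 (8 without High 1), Ginseng cytosolic 5 to 7 and mitochondrial 0 to 1 (0 without High 1, 2 or 3 or Low 1 or 3). Medium against Low: Poria mitochondrial 0 to 2 (2 without Medium 2, 1 without Low 3), Glycyrrhiza cytosolic 0 to 3 (0 without Low 3). Cytosolic calls against vehicle: SDT Medium 5 to 7 (5 without Medium 1), PMT Medium 2 to 7 (2 without Medium 2, 3 without Vehicle 2 or 3), PMT Low 3 to 7 (3 without Low 3), Poria Medium 6 to 10 (6 without Medium 3, 7 without Vehicle 1), Poria Low 0 to 4 (0 without Vehicle 2), Atractylodis Medium 3 to 4 (3 without Vehicle 2 or 3), Atractylodis Low 2 to 5 (2 without Vehicle 2), Glycyrrhiza Low 2 to 4 (2 without Low 2), Ginseng Medium 2 to 5 (2 without Vehicle 2), Ginseng Low 3 to 6 (3 without Low 1). Mitochondrial calls against vehicle: SDT High 4 to 6 (4 without High 1 or Vehicle 2), PMT High 1 to 4 (1 without High 2), PMT Medium 2 to 5 (2 without Medium 2), PMT Low 2 to 6 (2 without Low 3), Poria Medium 1 to 5 (1 without Medium 2), Poria Low 2 to 3 (2 without Vehicle 2 or 3 or Low 1), Atractylodis Medium 1 to 4 (1 without Medium 3), Glycyrrhiza Medium 3 to 5 (3 without Vehicle 1 or 3), Ginseng Low 2 to 6 (2 without Low 1). Where a PMT group was left with 1 library, that library was assumed to vary like the other groups.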

Other observations

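The 2 subunits of the cytosolic phenylalanyl enzyme work as a complex of both, and their transcripts stood in different proportion in vehicle and in the extracts. This ratio was chosen after its values were seen and was not tested. FARSA divided by FARSB, in CPM, was 0.661 to 0.736 in the 3 vehicle libraries and 0.735 to 1.21 in the 57 extract libraries. The lowest extract library, in Poria at Low, was just under the highest vehicle library, and Poria at High had the highest group mean, 1.06. Vehicle and set code cannot be told apart in this difference.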
